A study of Mus musculus with 16 samples.

Results

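The thioredoxin system was followed through 10 mouse genes, namely the thioredoxins Txn1 and Txn2, the thioredoxin reductases Txnrd1, Txnrd2 and Txnrd3, the sulfiredoxin Srxn1, the thioredoxin-like protein Txnl1, the thioredoxin-binding arrestin Txnip, its relative Arrdc4 and the thioredoxin-bound kinase Map3k5. These were the members among 18193 genes that had a probe set with a single annotated gene symbol, and each was represented by every probe set with that symbol alone, 31 in all. The study used Affymetrix mouse expression arrays to compare the mRNA of exosomes with that of MC/9 cells, a mouse mast cell line, under normal conditions and under oxidative stress. There were 16 arrays in 4 groups of 4. Oxi exo were exosomes from MC/9 cultures given 125 µM H2O2 for 24 h, norm exo were exosomes from cultures without H2O2, and oxi cell and norm cell were MC/9 cells of the same conditions. The study reports that this dose killed a large part of the cells, and the part of cell death in the results was not tested. All 4 groups come from a single cell line kept in medium with fetal bovine serum, a T cell growth supplement and 2-mercaptoethanol, itself a thiol reductant. The label text has exosomes added to these cells, while the study itself uses them as the donors of the exosomes, kept with H2O2 or vehicle, and the groups here rest on the labelled cell type and condition. The labels number the replicates, and the study names a pair of its norm cell samples, and a pair of its norm exo samples, as coming from different cultures. For the other samples this is not stated, so the p-values measure only the spread between these samples, which may be technical.

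Thioredoxins are small proteins that reduce disulfides in other proteins, among them peroxiredoxins, methionine sulfoxide reductases and ribonucleotide reductase. Thioredoxin reductases, which are selenoproteins, return them to the reduced form with electrons from NADPH, in the cytosol (Txnrd1 for Txn1) and in mitochondria (Txnrd2 for Txn2). Txnip binds reduced thioredoxin and also limits glucose uptake, and its gene is known to be switched on by glucose through the factors MondoA and ChREBP, whereas Txnrd1 and Srxn1 are known targets of the oxidant-responsive factor NRF2.

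The promoters of Txnip and Txnrd1 are shown because these were the members with the largest fall and the largest rise in the cells. The windows hold the 250 bases before the start site and come from RefSeq (GRCm38.p6), which gave such windows for 9 of the 10 genes used here. In the Txnip window, chr3:96557707-96557956 on the plus strand, capitals mark a pair of CACGNG letters set 5 bases apart, the arrangement of a carbohydrate response element, at bases -85 to -69. In the window of the start site of Txnrd1 shown here, chr10:82858956-82859205 on the plus strand, capitals mark the letters TGACNNNGC of an antioxidant response element, read on the reverse strand, at bases -92 to -84. RefSeq gave 3 start sites for Txnrd1, and this window is shown because it holds the letters, which the windows of the other 2 do not.
Txnip: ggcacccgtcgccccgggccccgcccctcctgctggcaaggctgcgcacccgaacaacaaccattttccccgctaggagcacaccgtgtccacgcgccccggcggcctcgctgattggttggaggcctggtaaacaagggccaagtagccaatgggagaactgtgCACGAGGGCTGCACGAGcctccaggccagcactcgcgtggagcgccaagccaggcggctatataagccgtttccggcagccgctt
Txnrd1: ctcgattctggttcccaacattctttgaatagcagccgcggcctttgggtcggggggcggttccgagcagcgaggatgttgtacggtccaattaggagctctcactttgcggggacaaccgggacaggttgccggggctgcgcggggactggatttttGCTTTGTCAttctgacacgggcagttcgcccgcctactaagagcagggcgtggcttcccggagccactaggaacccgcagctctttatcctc
Both strands of 32851 windows of the same length were searched. The CACGNG pair was in 15 of them, or 0.0457%, and the TGACNNNGC letters in 3338, or 10.2%. The Txnip window also held 2 CCAAT matches, a pentamer found in 33.9% of windows. The Arrdc4 window held no such CACGNG pair, 1 CACGTG (in 6.02% of windows), 1 TGACNNNGC and 6 CCAAT, and the Srxn1 window held no TGACNNNGC. Other forms of the antioxidant response element were not searched, so a window without TGACNNNGC may still hold one. A match is a match of letters only, and the motifs were chosen with the results known.

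The deposited values are signals on a linear scale, set by the authors to the same trimmed mean of 100 on every array, so that a signal is a share of what each array measured and not an amount of RNA. Fewer cells with a transcript and less of it per cell therefore cannot be told apart. A background was taken for each array from 296 probe sets of genes that belong to other tissues, at their 95th percentile, and it averaged 259 ± 11.8 in oxi exo, 229.6 ± 16.8 in norm exo, 15.2 ± 1.21 in oxi cell and 18.4 ± 2.74 in norm cell (SD, n = 4 each). The spiked hybridization controls were 20.8 times as bright on the oxi exo as on the oxi cell arrays, and 17.3 times on the norm exo as on the norm cell arrays. The 3' to 5' signal ratio of Gapdh ran between 1.43 and 2.33 over the exosome arrays and between 0.823 and 0.884 over the cell arrays. That of actin ran between 2.77 and 6.55 over the exosome arrays and between 1.30 and 1.55 over the cell arrays. Actin averaged 3.86 in oxi exo and 5.35 in norm exo, while Gapdh averaged 1.89 and 1.64, so the 2 controls ordered the exosome groups differently. Of 10 mast cell markers, 9 were above background on every array of both cell groups (Mcpt4 was not), while 2 were in oxi exo and 6 in norm exo. The summed signal of the mast cell markers was 29327 to 35075 in oxi cell and 39250 to 43090 in norm cell, so it was lower in every oxi cell array, and its part in the results below was not tested. By the test described below, 6 of the 10 markers fell in oxi cell against norm cell and 1, Hdc, rose (log2 change 0.58). Of the markers of other blood cells and fibroblasts, those above background on every array of a cell group were Zap70 in oxi cell only, and Csf1r and Klf1 in both. In exosomes the only such marker was the T cell gene Zap70, in both groups. It was at 1089 ± 233 in oxi exo and 807 ± 55.8 in norm exo, and the source of this signal was not tested.

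In cells, 8 of the 10 genes were above background on every array in oxi cell and the same number in norm cell, against 51.2% and 50.2% of all genes. Txnrd3, a reductase of the testis, and Arrdc4 were below background on all 16 arrays. In exosomes, none of the 10 was above background on all 4 oxi exo arrays, where 3.74% of all genes were, and 3 were on all 4 norm exo arrays, namely Txn1, Txnl1 and Txnip, where 6.89% of all genes were.

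**Figure D1:**
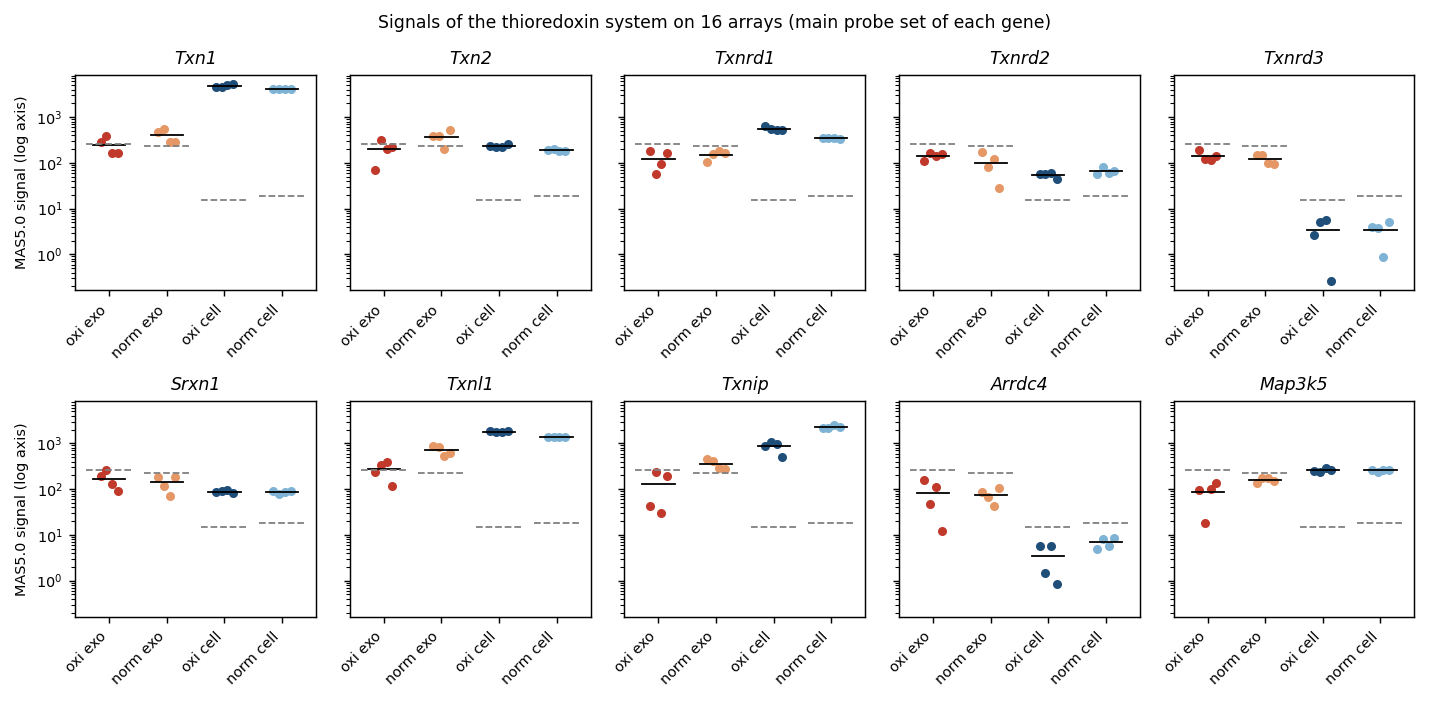
MAS5.0 signal (log axis) of the main probe set of each of the 10 genes on the 16 arrays, with oxi exo, norm exo, oxi cell and norm cell from left to right, a point per array, a solid line at the group mean and a dashed line at the mean background of the group. Txnip sits between 511 and 1066 in oxi cell, below the 2122 to 2466 of norm cell, while most exosome points lie near or under the dashed line.

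In oxi cell against norm cell, 4 of the 10 genes rose (Txn1, Txn2, Txnrd1 and Txnl1), 1 fell (Txnip) and 5 did not pass the test, by limma with Benjamini-Hochberg adjustment across every probe set tested and a threshold of 0.05. Over all genes, 6.16% rose and 5.54% fell in the same fit (1120 and 1007 genes, or 3734 and 152 when scaled to the spiked controls). The median log2 change was 0.01 over the 10 genes and -0.09 over all genes. By probe set, 6 of the 31 rose and 2 fell. The methods' t-test, which is paired, gave the same 5 genes on the linear signals at its unadjusted threshold, where 20.6% of all genes passed, and none of them after Benjamini-Hochberg adjustment.

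Txn1 (chr4:57943373-57956411, GRCm38.p6 here and below), the cytosolic thioredoxin, had signals of 4460.0, 4546, 5116 and 5188 in oxi cell, against 4168, 4094.5, 4180.0 and 4153 in norm cell. All 4 oxi cell arrays were above all 4 norm cell arrays. The rise was small, a log2 change of 0.22 (SE 0.06, limma adjusted p = 0.0300), with means of 4827 ± 377 in oxi cell and 4149 ± 37.8 in norm cell (SD, n = 4), and it no longer passed without replicate 2, 3 or 4, where adjusted p was 0.0680, 0.113 and 0.192. The other probe set of Txn1 was not above background on every array of any group.

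Txn2 (chr15:77915051-77928994), the mitochondrial thioredoxin, had 233, 222, 219 and 264 in oxi cell, against 194, 198, 177 and 184 in norm cell. The groups did not overlap, and the log2 change was 0.31 (SE 0.08, limma adjusted p = 0.0303). The call was lost when any 1 replicate number was left out, with adjusted p between 0.0513 and 0.156. Its other probe sets gave log2 changes of 0.27 (adjusted p = 0.0479) and 0.28 (adjusted p = 0.0537), so the 3 were close in size on both sides of the threshold.

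Txnrd1, the cytosolic reductase that recharges Txn1, had the largest rise of the 10 genes. Its main probe set had 652, 560.2, 509 and 517 in oxi cell, against 348, 356, 344 and 329.6 in norm cell. Every oxi cell array was above every norm cell array, the log2 change was 0.69 (SE 0.07, limma adjusted p = 2.10e-04), and the call held with each replicate left out. A second probe set, at 32.3 ± 10.1 in oxi cell and 27.8 ± 4.85 in norm cell, did not pass (log2 change 0.17, adjusted p = 0.774), and the remaining one was below background on all arrays. Txnrd1 lies at chr10:82833951-82897724, and the files do not say which of its transcripts each probe set reads.

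Txnrd2 (chr16:18426417-18479073), the mitochondrial reductase, had 58.2, 57.4, 60.5 and 43.6 in oxi cell, against 57.0, 81.4, 58.6 and 67.7 in norm cell. The groups overlapped, with a log2 difference of -0.27 (SE 0.15, adjusted p = 0.343), and none of its probe sets passed.

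Srxn1 (chr2:152105524-152111376), which repairs overoxidized peroxiredoxins at the cost of ATP, had 88.4, 89.3, 96.0 and 81.4 in oxi cell, against 90.3, 77.1, 86.5 and 92.2 in norm cell. The groups overlapped, the log2 difference was 0.04 (SE 0.11, adjusted p = 0.889), and the other 3 probe sets of Srxn1 did not pass either.

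Txnl1, a thioredoxin-like protein that binds the proteasome, had 1830.4, 1747, 1796 and 1876 in oxi cell, against 1407, 1377, 1356 and 1397 in norm cell. The 4 oxi cell arrays were higher without overlap, at a log2 change of 0.39 (SE 0.05, limma adjusted p = 7.58e-04). A second probe set also rose (log2 change 0.24, adjusted p = 0.0147), and another, at 176 ± 4.48 in oxi cell and 158 ± 10.7 in norm cell, lay higher without passing (log2 0.15, adjusted p = 0.306). The other 3 probe sets of the gene were not above background on every array of either cell group.

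Txnip (chr3:96557957-96561857), the protein that holds reduced thioredoxin and limits glucose uptake, was the only one of the 10 genes that fell. Its main probe set had 886, 1066, 992 and 511 in oxi cell, against 2168, 2122, 2466 and 2252 in norm cell. The highest oxi cell array was below the lowest norm cell array, and replicate 4 was the lowest of all. The log2 change was -1.43 (SE 0.14, limma adjusted p = 1.66e-04), or 2.70-fold lower in oxi cell. The second probe set of Txnip had 338, 408, 257 and 159 in oxi cell, against 712, 701, 806 and 842 in norm cell, again without overlap, and its log2 change was -1.48 (SE 0.19, adjusted p = 8.40e-04). The lowest oxi cell array was thus replicate 4 in both probe sets. Among the 9132 genes above background on every norm cell array, the fall of Txnip was the largest in every alternative with all 4 replicates, and it ranked 4, 2, 4 and 13 without replicate 1, 2, 3 and 4. This fall was known from earlier results of these data, and the alternatives share the same arrays, so the rank is a description and not independent support.

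Map3k5 (chr10:19934101-20142750), also called ASK1, is a kinase upstream of JNK and p38 that thioredoxin holds inactive. It had 248.6, 235, 285 and 256 in oxi cell, against 268, 241, 264 and 268 in norm cell. The groups overlapped (log2 difference -0.03, SE 0.07, adjusted p = 0.884), and its second probe set did not pass. Scaling to the spiked controls turned the direction and gave a log2 change of 0.27 (adjusted p = 0.0403), under a median shift of all genes to 0.20. Under that scaling the 5 other calls in cells were kept, with Txnrd1 at 0.99 and Txnip at -1.14.

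**Figure D2:**
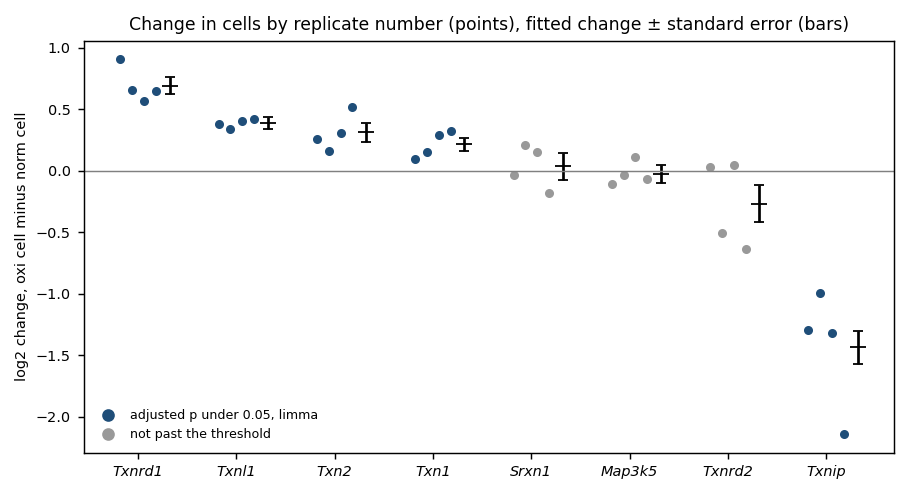
Log2 change of oxi cell minus norm cell for the 8 genes above background in cells, with a point for each replicate number and a bar at the fitted change ± its standard error. Blue points mark the 5 genes that passed limma at an adjusted p under 0.05, from 0.69 for Txnrd1 to -1.43 for Txnip, whose replicate 4 lies lowest at -2.14.

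The other genes of the pathway were read from lists, as counts over the genes with a probe set. Over all genes, 6.16% rose and 5.54% fell. Most genes of these lists were above background in cells, against 51.2% of all genes in oxi cell and 50.2% in norm cell. In the fit with a filter on low signals, 1349 of 10265 genes rose and 1285 fell, larger shares than those over all genes. The counts below are to be read beside both. A list of enzymes that thioredoxin reduces and of sestrins had a median log2 change of 0.12 in cells, beside -0.09 over all genes. Of its 12 genes, 4 rose in oxi cell against norm cell and none fell. These were the peroxiredoxin Prdx2 (1395 ± 57.5 in oxi cell, 1069 ± 25.6 in norm cell, log2 0.38), the methionine sulfoxide reductases Msrb1 (log2 0.33) and Msrb2 (47.2 ± 3.95 in oxi cell, 25.1 ± 9.24 in norm cell, log2 0.97, adjusted p = 0.0167), and Sesn2 (log2 0.72, adjusted p = 0.0329), a stress-induced sestrin. Rrm2, the ribonucleotide reductase subunit with the highest signal of that list, was at 1924 ± 78.7 in oxi cell and 2169 ± 84.1 in norm cell and did not pass (adjusted p = 0.0726). Of 20 thioredoxin-like proteins, 1 rose and 2 fell, near the shares over all genes. Txndc9, which binds a cytosolic chaperonin, rose by a log2 of 0.24 (adjusted p = 0.0329), and Tmx4, a thioredoxin-like protein of the endoplasmic reticulum membrane, had the larger fall at -0.61 (492 ± 21.7 in oxi cell, 752 ± 26.0 in norm cell, adjusted p = 2.05e-04).

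Of 16 genes of selenoproteins and of factors that make or insert selenocysteine, 3 rose and none fell, where 6.16% and 5.54% of all genes did. The genes that rose were selenoproteins, and none of the factors passed. Selenos, of the endoplasmic reticulum, was at 937 ± 61.0 in oxi cell and 649.9 ± 24.5 in norm cell (log2 0.53, adjusted p = 4.49e-04), and Selenof and Selenow rose by 0.32 and 0.21. Of 11 genes of the glutathione and glutaredoxin system, the parallel route for reducing disulfides, 2 rose (Gpx1 at 0.30 and Glrx5 at 0.27) and 1 fell, Gclc, the catalytic subunit of the limiting step of glutathione synthesis, at -0.41 (117 ± 8.28 in oxi cell, 155 ± 11.2 in norm cell, adjusted p = 0.0101). Of 17 NRF2 target genes, 2 rose and none fell, again near the shares over all genes. They were Pgd, which makes NADPH in the pentose phosphate pathway (1002 ± 116 in oxi cell, 578 ± 84.4 in norm cell, log2 0.80, adjusted p = 4.01e-05), and the quinone reductase Nqo1 (log2 0.46, adjusted p = 0.0485), while Hmox1, a heme oxygenase, was at 44.8 ± 8.35 in oxi cell and 38.6 ± 6.76 in norm cell and did not pass (adjusted p = 0.577).

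A list of 15 genes held alpha-arrestins, factors of the glucose response, glucose transporters, ubiquitin ligases and AMPK subunits. Of these, 6 fell and none rose, where 5.54% of all genes fell and 6.16% rose. The list median was -0.32 beside -0.09 over all genes. Arrdc3 was the only alpha-arrestin of the list that passed. Klf10, a Krüppel-like repressor, had the largest of these falls, with 136 ± 23.6 in oxi cell and 299.7 ± 5.28 in norm cell (log2 -1.16, adjusted p = 8.68e-05). The alpha-arrestin Arrdc3 (log2 -0.66), the ubiquitin ligase Itch, which marks Txnip for degradation (log2 -0.52), the AMPK subunit Prkaa1 (log2 -0.31) and the glucose transporters Slc2a1 (log2 -0.32) and Slc2a3 (log2 -0.40) fell as well. Mlxip, which encodes MondoA, was at 156 ± 7.54 in oxi cell and 160.1 ± 17.2 in norm cell and did not pass, its partner Mlx did not pass either, and Mlxipl, which encodes ChREBP, was below background. Of 13 genes of the ASK1 kinase pathway, 2 rose, the kinases Map2k4 (log2 0.35) and Map2k3 (log2 0.25), and 2 fell, Mapk8, which encodes a JNK (log2 -0.62, adjusted p = 0.00890), and the adaptor Ywhaz (log2 -0.51, adjusted p = 6.57e-04).

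The 5 genes whose signals were most like those of Txnip over the 8 cell arrays were Aldoc, an aldolase of glycolysis, Mir142, by a probe set annotated to that microRNA gene, Grcc10, Izumo4 and Ctse, cathepsin E. Likeness was the root mean square difference of log2 signals after each gene's mean was taken off, and it ran from 0.200 for Aldoc to 0.279 for Ctse, beside a median of 0.776 over 9131 genes. Only genes above background on every norm cell array were searched. Aldoc had 1258, 1486, 1725 and 1024 in oxi cell, against 3225, 2946, 3209 and 3003 in norm cell. As with Txnip, the groups did not overlap and replicate 4 of oxi cell was the lowest array. Mir142 had 125, 132, 143 and 68.3 in oxi cell, against 243, 234.5, 266 and 209 in norm cell, with the same array lowest. These genes were picked for their likeness on these arrays, so their values are a description without a test.

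**Figure D3:**
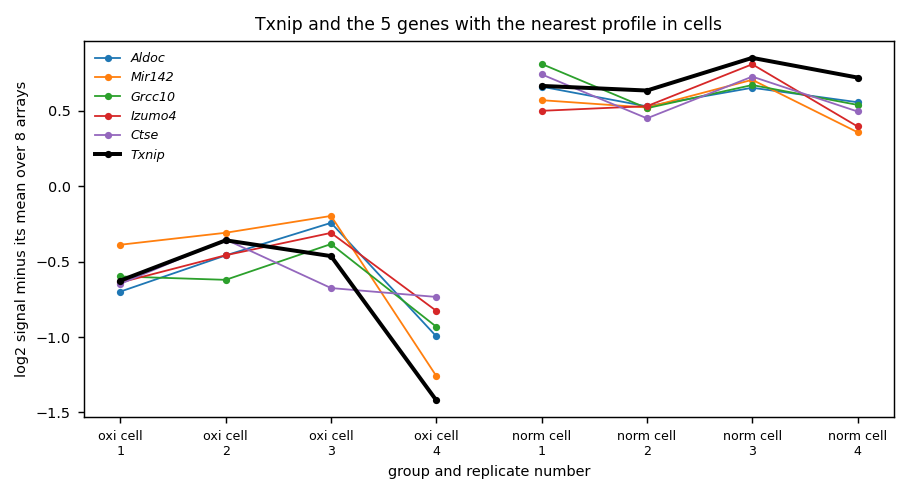
Log2 signal minus the gene's mean over the 8 cell arrays, for Txnip (black) and the 5 genes nearest to it, with the oxi cell arrays left of the norm cell arrays and a point per array. All 6 lines lie below 0 on every oxi cell array and above 0 on every norm cell array, and replicate 4 is the lowest oxi cell point of each.

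In oxi exo against norm exo, none of the 10 genes rose and 1 fell (Txnl1), where 0.022% of all genes rose and 2.17% fell. The median log2 difference was -0.54 over the 10 genes and 0.01 over all genes, and 7 of the 10 were not above background on every array of either group. Across all probe sets, 7.08% ± 1.01 were above background on the oxi exo arrays and 9.95% ± 1.51 on the norm exo arrays (SD, n = 4), and the summed signal of the mast cell markers was 1566 to 2326 in oxi exo and 3924 to 6504 in norm exo. The part of these in the differences was not tested. The methods' t-test on linear signals gave 3 of the 10 genes (Txn1, Txnip and Txnl1) before adjustment, where 9.53% of all genes passed, and none after it.

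Txnl1 had 234, 334, 399 and 117 in oxi exo, against 872, 841, 539 and 611 in norm exo. The groups did not overlap, 2 of the oxi exo arrays and all norm exo arrays were above background, and the log2 change was -1.51 (SE 0.30, limma adjusted p = 0.0113). The call was lost with quantile normalization (adjusted p = 0.0877) and without replicate 1 (0.0846) or replicate 4 (0.0616). It rests on 1 of the 6 probe sets of Txnl1, as the others were not above background on every array of either exosome group. One of these, above background on 1 oxi exo and 2 norm exo arrays, was at 214 ± 81.6 in oxi exo and 212 ± 58.9 in norm exo (log2 -0.03, adjusted p = 0.989). In the cells the main probe set of Txnl1, the one called lower here, rose, as given above. For this main probe set the test of that contrast, the change in exosomes minus the change in cells, gave -1.90 (SE 0.51, limma adjusted p = 0.329). The contrast thus did not pass. It passed on log2(signal + 100) (adjusted p = 0.0243) and in a fit that took no account of the replicate number (0.0148).

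Txnip had 42.0, 241, 30.0 and 195 in oxi exo, all below background, against 447, 419, 288 and 273 in norm exo, all above it. With the oxi exo arrays taken at their background, Txnip was lower in oxi exo by at least 1.35-fold. The fitted log2 difference of -1.99 (SE 0.49) did not pass, with limma adjusted p = 0.0515. It passed among probe sets above a filter on low signals (0.0422), on log2(signal + 100) (0.0119), without replicate 2 (0.0437) and without replicate 4 (0.0226). With the floor at background it passed as well (1.74e-05). It did not pass with no replicate block (0.0989), quantile normalization (0.0820) or the spiked controls as scale (0.0726). Nor did it without replicate 1 (0.309) or 3 (0.189), or by the methods' paired t-test on linear (0.593) or log2 signals (0.708). The second probe set of Txnip was below background on all exosome arrays, so that the values in exosomes rest on 1 probe set.

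Txn1 had 279, 382, 165 and 165 in oxi exo, against 469, 559, 279.5 and 291 in norm exo. It was lower in oxi exo in 4 of 4 replicate numbers, but the groups overlapped and the log2 difference of -0.72 (SE 0.27) did not pass (adjusted p = 0.353). Txn2 was above background on 1 oxi exo array and 3 norm exo arrays, with 69.9 to 318 in oxi exo and 197 to 535 in norm exo. The main probe sets of Txnrd1, Txnrd2, Txnrd3, Arrdc4 and Map3k5 were below background on every exosome array, and Srxn1 was above it on 1 oxi exo array, so that no change is given for these genes.

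From the same lists, no gene rose in oxi exo against norm exo, where 0.022% of all genes rose and 2.17% fell. These shares count all genes, of which only 3.74% were above background on every oxi exo array and 6.89% on every norm exo array. A list's count of falls is thus not set against genes of like brightness. Of the 10 mast cell markers, 4 fell. P4hb, a protein disulfide isomerase, fell among the thioredoxin-like proteins (584 ± 121 in oxi exo, 1550.3 ± 206 in norm exo, log2 -1.42, adjusted p = 0.00102). The peroxiredoxin Prdx4 (log2 -1.76, adjusted p = 4.96e-04) and Rrm2 (log2 -1.34, adjusted p = 0.00960) fell on the list of enzymes that thioredoxin reduces and of sestrins, as 2 of 12. They were the only 2 of the 12 above background on every array of an exosome group. Selenow (log2 -0.98), Slc2a1, Mapk14 (log2 -2.31) and the transketolase Tkt (521 ± 158 in oxi exo, 1728 ± 549 in norm exo, log2 -1.73, adjusted p = 3.45e-04) each fell as 1 gene of their lists. None of the 11 glutathione and glutaredoxin genes passed, and none was above background on every array of either exosome group. Slc2a1 was below background on all oxi exo arrays and on 2 of the norm exo arrays.

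The change in exosomes minus the change in cells was tested for all genes, and 0.0% of them passed, none of the 10 among them, with the smallest adjusted p in limma at 0.329. Before adjustment, 2209 of 18193 genes had p under 0.05, and a fit with no replicate block called 38 genes higher and 400 lower. The 10 genes had a median difference of -0.75 on the log2 scale beside 0.14 over all genes. Of them only Txn1, Txnl1 and Txnip were above background on every array of an exosome group. The median thus rests mostly on signals dim in exosomes. For Txnip the fitted difference of -0.56 (SE 0.97, adjusted p = 0.850) rests on oxi exo signals below background, and it turned to 0.21 on log2(signal + 100) (adjusted p = 0.858) and to 1.01 with the floor at background (adjusted p = 0.00158), so no direction is given.

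Exosomes were then set against cells within each condition. The main probe sets of 3 genes were called higher and 5 lower in oxi exo against oxi cell, where 55.3% of all genes were called higher and 25.3% lower. In norm exo against norm cell 3 were called higher and 5 lower as well, where 53.8% of all genes were called higher and 23.7% lower. Median log2 differences were -1.13 over the 10 genes and 1.99 over all genes in oxi exo against oxi cell, and -0.18 and 1.70 in norm exo against norm cell. Of the genes called higher, Txnrd3 and Arrdc4 were below background on all arrays of both groups and are given no fold. The split of calls turned with the scaling. Of the 10 genes, 1 was called higher and 5 lower in oxi exo against oxi cell with quantile normalization, and 0 and 8 with the spiked controls, while in norm exo against norm cell 3 and 3 were called with quantile normalization, and 0 and 8 with the spiked controls. Over all genes it turned as well. In oxi exo against oxi cell 10060 were called higher and 4610 lower as deposited, 3913 and 4919 with quantile normalization, and 609 and 10034 with the spiked controls as the scale. In norm exo against norm cell the counts were 9793 and 4307, 3662 and 4343, and 399 and 10237. These comparisons share arrays with the H2O2 comparisons.

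Txn1 was at 247 ± 105 in oxi exo against 4827 ± 377 in oxi cell (log2 -4.38, SE 0.29, limma adjusted p = 1.24e-05), and at 399.8 ± 137 in norm exo against 4149 ± 37.8 in norm cell (log2 -3.44, SE 0.21, adjusted p = 2.78e-06). Its signal was above background on 2 of the oxi exo arrays and on all norm exo arrays. The direction was kept with quantile normalization (-3.29 for oxi, -1.98 for norm) and scaled to the spiked controls (-8.76 for oxi, -7.55 for norm). Txnip was lower by at least 3.21-fold in oxi exo against oxi cell, and in norm exo, at 357 ± 89.0 against 2252 ± 152 in norm cell, its log2 difference was -2.69 (SE 0.21, adjusted p = 8.90e-06).

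Txnl1 was lower in oxi exo than in oxi cell (271 ± 123 against 1812 ± 54.7, log2 -2.88, SE 0.32, adjusted p = 7.79e-05) and in norm exo than in norm cell (716 ± 166 against 1384 ± 22.4, log2 -0.98, SE 0.19, adjusted p = 0.00103). With quantile normalization the difference in norm exo turned to 0.43 (adjusted p = 0.0349), so its direction there rests on the scaling. For Txnrd1, below background in exosomes, the lower bound of the difference was at least 2.15-fold for oxi exo against oxi cell and at least 1.5-fold for norm exo against norm cell. Map3k5, also below background in exosomes, was called lower in both conditions. In norm exo against norm cell it was lower by at least 1.13-fold, a call lost with quantile normalization (adjusted p = 0.181), with a floor at background (0.0910) and without replicate 1 (0.0839) or 4 (0.0725). In oxi exo against oxi cell no bound on a fold can be given, because the background of oxi exo was as high as the signal of Map3k5 in oxi cell (256 ± 21.4). With the floor the log2 difference there turned to 0.0202 (adjusted p = 0.712), and the methods' t-test on log2 signals lost the call (0.0791).

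The remaining 3 genes turned direction between scalings in at least 1 of the conditions. Txn2 was at 376 ± 138 in norm exo and 188 ± 9.55 in norm cell (log2 0.91, adjusted p = 0.0128), with 1 norm exo array inside the range of norm cell, it did not pass without replicate 4 (0.0687), and scaled to the spiked controls the difference was -3.20 (adjusted p = 2.33e-06). Txnrd2 was called higher in oxi exo than in oxi cell at 1.36 (adjusted p = 0.00608), although all its oxi exo signals were below background, and was at -3.02 with the spiked controls. Srxn1, at 0.83 in oxi exo against oxi cell, did not pass (adjusted p = 0.0535), and was at -3.55 with the spiked controls. Over all genes, the median log2 difference in oxi exo against oxi cell was 1.99 as deposited, 0.11 with quantile normalization and -2.39 with the spiked controls, and in norm exo against norm cell it was 1.70, 0.16 and -2.41. Txn1, Txnrd1, Txnip and Map3k5 lay lower than those medians in both conditions under all 3 scalings, with Txnrd1 and Map3k5 below background in exosomes. Only 3.74% of all genes were above background on every oxi exo array, and 6.89% on every norm exo array. The medians thus rest mostly on genes dim in exosomes, and a place below them is a description only.

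**Figure D4:**
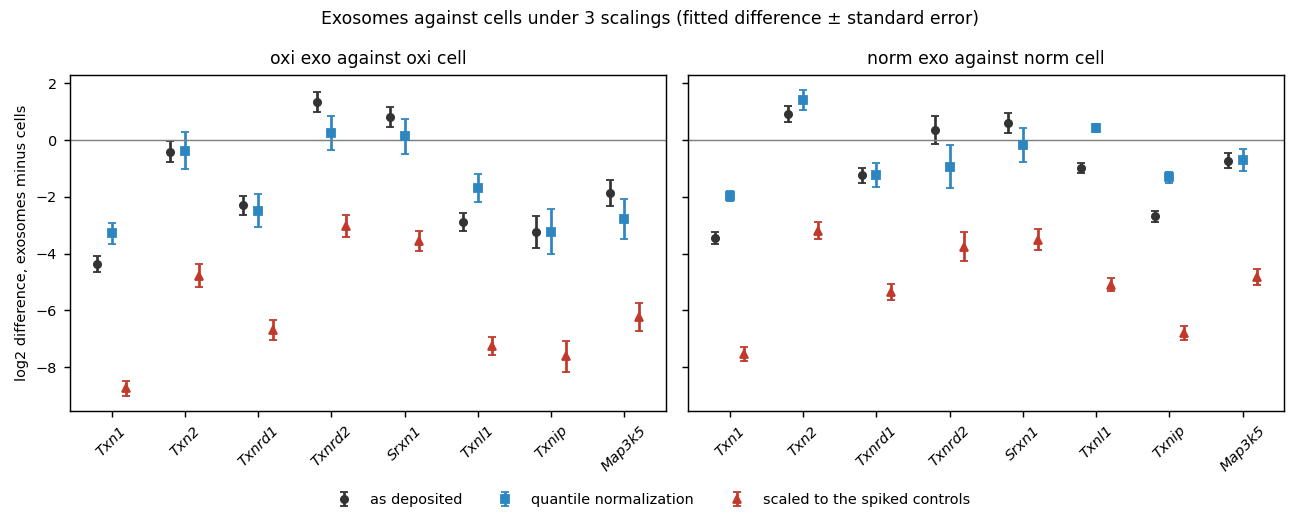
Log2 difference of exosomes minus cells, ± its standard error, for the 8 genes above background in cells, in oxi exo against oxi cell (left) and norm exo against norm cell (right), under 3 scalings of the arrays. Txn1, Txnrd1, Txnip and Map3k5 lie below 0 under every scaling, whereas Txn2, Txnrd2 and Srxn1 in norm exo lie above 0 as deposited and below it when scaled to the spiked controls.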

How the data were processed

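RNA of exosomes and of MC/9 cells was hybridized to 16 arrays, 4 per group. The authors deposited linear signal intensities from MAS5.0 (GCOS 1.2 per the labels), which had been brought to a trimmed mean of 100 per array (2% at each end). The study and the labels differ in the array's name, and the file holds 45101 probe sets. Detection calls were not used here. Tests covered 45037 probe sets, without 64 controls, and 34945 of them had 1 symbol, 932 several and 9160 none, with old symbols updated through Entrez ID and RefSeq.

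Each comparison was a limma fit of log2 signals (limma 3.58.1, R 4.3.3, lmFit, eBayes with a trend, replicate number as a block), with Benjamini-Hochberg adjustment over all probe sets at 0.05. The change in exosomes minus that in cells was fitted on the 8 differences within replicate numbers. The main probe set of a gene was the one above background on the most of 16 arrays, with ties broken by mean log2 signal. An "at least" fold compares the bright mean with a background in place of a dimmer signal, and is given where all 4 arrays of the dim group were below background. From each list but the cell type markers were named the gene of highest signal in norm cell and the called genes of largest change in each direction. The further list genes were named after their values were seen. Members and lists were chosen with earlier results of these data known. The lists were thioredoxin-like proteins, enzymes reduced by thioredoxin together with the sestrins Sesn1 and Sesn2, the glutathione and glutaredoxin system, selenoprotein synthesis, alpha-arrestins and glucose-responsive factors, the ASK1 kinase pathway, NRF2 target genes, and cell type markers. The list with the alpha-arrestins also held ubiquitin ligases, AMPK subunits and glucose transporters. The scripts were tested on simulated data.

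Alternatives tried were a fit with no replicate block, quantile normalization, scaling to 9 spiked control probe sets, a filter on low signals, log2(signal + 100), a floor at background (fitted without a trend), the methods' paired t-test on linear and log2 signals, and each replicate left out. The number of arrays limits the precision. Python 3.11.15 with numpy 2.4.6, pandas 2.3.3 and matplotlib 3.10.9 was used. Viability, carbonyl and UV data were not analysed here.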

Additional observations from a re-analysis of the deposited data

Results flagged for a closer look

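One value stood apart from its group. For the main probe set of Map3k5, the norm cell array of replicate 2 had a signal of 241, below 264, 268 and 268 on the other norm cell arrays, and its gap was 0.871 of the range of the group, above Dixon's critical value at 95%. This was 1 of 42 groups of 4 arrays examined, and chance alone flags about 1 in 20. Map3k5 passed the test in cells neither with that replicate number nor without it.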

How the results depend on the processing

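Of 354 values of single members under alternatives, 285 kept their direction and their side of the threshold, 18 turned direction, 19 passed only under the alternative and 32 passed only in the fit reported. The count of members called in oxi cell against norm cell was 5, 0 with the methods' paired t-test on either scale, and 3 to 4 with a replicate left out. In oxi exo against norm exo it was 1, 0 with quantile normalization and with both paired t-tests, 2 with the filter and with log2(signal + 100), 10 with the floor, and 0 to 2 with a replicate left out. It was 8 in norm exo against norm cell and in oxi exo against oxi cell, and ran from 6 to 9 and from 8 to 9 in these with a replicate left out. For the change in exosomes minus the change in cells it was 0, 1 with no replicate block (Txnl1), 2 with log2(signal + 100) and 8 with the floor, and the methods' paired test was not run there. The floor sets dim signals to a background that itself differs between the groups, so it calls dim genes by construction.

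The fall of Txnip in oxi cell against norm cell was -1.38 (adjusted p = 0.107) and -1.43 (0.159) with the methods' paired test on linear and log2 signals, and ran between -1.58 and -1.20 with a replicate left out, -1.20 without replicate 4. Directions turned as follows, on the log2 scale, and the cause was not tested. Scaled to the spiked controls, values were 0.031 for Txnrd2 and 0.27 for Map3k5 in oxi cell against norm cell, -3.02 for Txnrd2 and -3.55 for Srxn1 in oxi exo against oxi cell, and -3.20 for Txn2, -3.76 for Txnrd2 and -3.50 for Srxn1 in norm exo against norm cell. With quantile normalization, Txnrd2 was at -0.93, Srxn1 at -0.17 and Txnl1 at 0.43 in norm exo against norm cell. With the floor, Txn2 was at 0.24 and Map3k5 at 0.0202 in oxi exo against oxi cell, and the change of Txnip in exosomes minus cells was 1.01, or 0.21 with log2(signal + 100). With a replicate left out, Srxn1 ran between -0.0196 (without replicate 2) and 0.11 in oxi cell against norm cell, and 3 values turned without replicate 1, namely Map3k5 in oxi cell against norm cell (-0.0708 to 0.0018), Txn2 in oxi exo against oxi cell (-0.71 to 0.0473) and Txnrd2 in norm exo against norm cell (-0.059 to 0.89).

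The replicate number was kept as a block because the methods name a paired test. Deviations of same-numbered arrays correlated between -0.05 and 0.08 in the cells and between -0.05 and 0.46 in the exosomes, so the data do not show that the numbers pair samples. With no replicate block the members called were 5 in cells, 1 in exosomes, 9 and 8 in oxi and norm exosomes against cells, and 1 for the difference of changes. Over all genes, counts of calls in oxi cell against norm cell were 1120 higher and 1007 lower, and at most 1 in each direction with the paired tests. In oxi exo against norm exo they were 4 and 394, 43 and 150 with quantile normalization, 17 and 553 with log2(signal + 100), and none with the paired tests. The floor gave 1706 higher and 10425 lower in oxi cell against norm cell, 14763 and 965 in oxi exo against norm exo, and 11425 and 1167 for the difference of changes, which gave 47 and 446 with log2(signal + 100). The filter, which tested fewer genes, gave 3167 and 4341 in oxi exo against oxi cell and 3208 and 4040 in norm exo against norm cell, and the paired test on linear signals 3810 and 3895, and 3161 and 3493. A single replicate left out gave between 672 and 949 higher and between 520 and 847 lower in oxi cell against norm cell, and between 220 and 422 lower in oxi exo against norm exo.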
